A study of Danio rerio with 16 samples.

Results

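The genes described here are 8 regulators and surface proteins of the blood and endothelial lineages, taken by their identifiers from the 34289 genes of the deposited expression tables: gata1a (ENSDARG00000013477), tal1 (ENSDARG00000019930), lmo2 (ENSDARG00000095019), etv2 (ENSDARG00000053868), fli1a (ENSDARG00000054632), kdrl (ENSDARG00000105215), cdh5 (ENSDARG00000075549) and spi1b (ENSDARG00000000767). All 8 passed the filter on low counts, as did 20536 genes in all. They were measured by RNA-seq in zebrafish primordial germ cells (PGCs) and in somatic cells (soma), separated by fluorescence-activated cell sorting at 4, 7, 24 and 36 h post fertilisation (hpf), with 2 libraries in each of the 8 groups. Every group, soma included, came from embryos of the same transgenic line, kop-EGFP-F-nos3'UTR, in which the kop promoter drives a membrane-bound GFP and the nos3 3' UTR keeps its transcript in germ cells. The transgene also carries cry-DsRed, a red fluorescent marker. Embryos were raised at one of several temperatures, and those kept past 24 hpf were given a compound that blocks pigment, so the 36 hpf groups of both cell types carried that treatment. How many embryos were pooled for a library is not given in the sources used here.

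Blood and vessels arise side by side in the lateral mesoderm of the fish embryo. Etv2 is an ETS-family factor near the top of the endothelial programme, and Tal1 (a bHLH factor) with its partner Lmo2 acts at the head of both lineages. Gata1a then directs the red cell line and Spi1b, the fish PU.1, the white cell line, while fli1a, kdrl and cdh5 mark endothelium: another ETS factor, a receptor for vascular endothelial growth factor, and the cadherin of endothelial junctions. Their level in sorted PGCs was set beside that in soma of the same stage.

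The libraries held between 2825775 and 15633266 expected counts, and 3 counts in a library corresponded to between 0.182 and 0.719 normalised counts per 1000000 (CPM). The sorted fractions carried their labels: 5 germ cell genes (nanos3, dnd1, tdrd7a, ddx4, dazl) summed to between 572 and 7914 CPM in the PGC libraries and to between 1.77 and 205 CPM in the soma libraries. A single label of soma 24 hpf replicate 1 names PGCs, whereas its title and cell type give soma, and its germ cell genes summed to 4.84 CPM. The 2 PGC libraries of 36 hpf stood apart from each other. The germ cell genes summed to 934 CPM in replicate 1 and to 2196 CPM in replicate 2, the neural genes to 716 and 77.4 CPM, and the red cell genes to 912 and 152 CPM. Results at 36 hpf in PGCs are therefore given for both libraries. The soma libraries of 36 hpf differed too, with red cell genes at 3943 and 1318 CPM and skin genes at 3793 and 24027 CPM. The PGC libraries of 24 hpf in turn held skeletal muscle genes at 12700 and 22396 CPM, within the 2908 to 24449 CPM of soma at that stage.

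At 4 and 7 hpf the 8 genes had few or no counts in both cell types, the highest being 28 for fli1a. spi1b had no count in any of the 8 libraries, which allows up to 3 counts in each. gata1a had a single count, in PGC 7 hpf replicate 2. tal1 was counted in 1 library of either cell type at 7 hpf, with 4 counts in PGCs and 5 in soma, and lmo2 in 3 libraries of 7 hpf with 2 to 4 counts. The vessel genes gave slightly more. cdh5 had 12 and 10 counts in the PGC libraries of 4 hpf, 12 and 0 in soma of 4 hpf, and at most 2 in any library of 7 hpf. kdrl had 8 counts in PGC 4 hpf replicate 2 and 10 in soma 7 hpf replicate 2, with 0 to 3 elsewhere. fli1a had 28 counts in PGC 4 hpf replicate 1 and 0 in replicate 2, so the replicates of that group did not agree on whether it was present. No member was called different between PGCs and soma at 4 hpf, where 0.0438% of all genes were called higher and 0% lower, or at 7 hpf, where 3.16% and 0.813% were. Before adjustment 0 members passed p under 0.05 at 4 hpf and 1 at 7 hpf, etv2, from 5 and 0 counts in PGCs and none in soma (9.66% of all genes were higher by that rule). DESeq2 and limma called 0 at both stages. From 4 to 7 hpf 0 members were called in soma (9.29% of all genes higher, 9.37% lower) and 0 in PGCs (5.03% higher, 2.08% lower). Before adjustment 0 passed in soma, and in PGCs lmo2 was higher (10.1% of all genes) and cdh5 and fli1a lower (6%), while DESeq2 and limma called 0 in either.

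**Figure D1:**
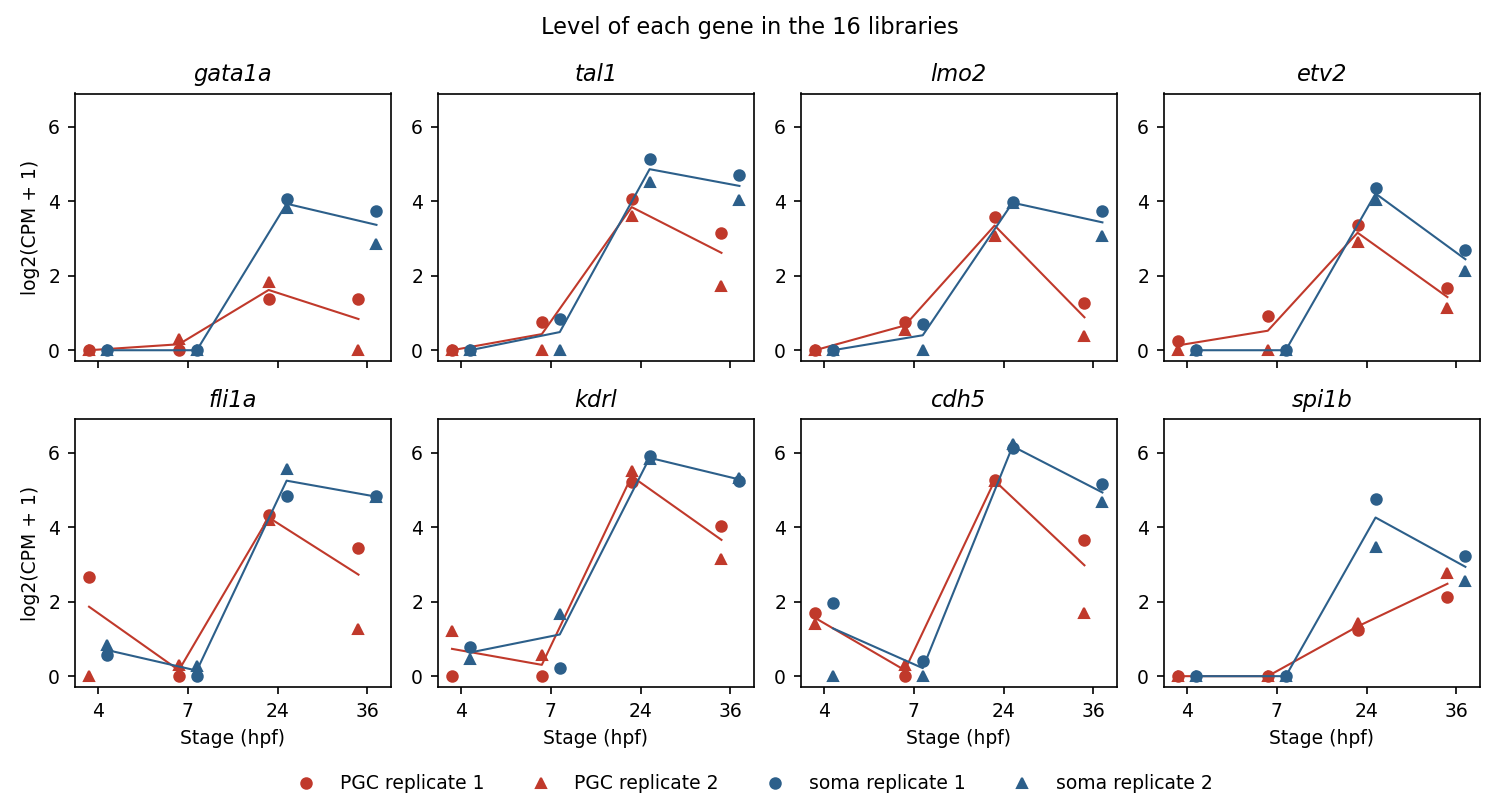
Each panel plots 1 gene, with the stage in hours post fertilisation on the x axis and log2(CPM + 1) on the y axis; each point is 1 library (red, PGCs; blue, soma; circle, replicate 1; triangle, replicate 2) and the line joins the log2 of the group means. All 8 genes are higher in both libraries of 24 hpf than in both of 7 hpf in either cell type, fli1a has a raised point in PGC 4 hpf replicate 1 (5.29 CPM), and at 36 hpf the red points of all genes but spi1b lie below the blue ones.

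Between 7 and 24 hpf all 8 genes rose in soma. The call required an adjusted p under 0.05 (edgeR quasi-likelihood test, Benjamini-Hochberg over 20536 genes) and a log2 fold change past 1.5, and 22.1% of all genes tested were called higher in the same comparison. The median log2 fold change of the 8 was 8.43, or 5.50 with the 3 genes that had no count at 7 hpf set to their lower bounds, against 0.49 over all genes tested. The reference stage was close to 0, so folds are bounds or wide intervals. etv2 had 142 and 97 counts at 24 hpf and none at 7 hpf, gata1a 113 and 82, and spi1b 190 and 64. Their levels were at least 23.5-fold, 19.8-fold and 15.5-fold higher, each bound setting the lower 24 hpf library against 3 counts in a 7 hpf library. The smallest fitted change was that of lmo2 (log2 fold change 5.31, SE 1.15, adjusted p = 0.00389), whose libraries went from 0.644 and 0 CPM to 14.8 and 14.5 CPM. The call of all 8 held in every alternative run, each left-out library included.

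Other genes of the same lineages rose with them in soma. Of 16 tested further regulators 10 were called higher and none lower. Among them were myb, a regulator of blood stem cells (mean 40.6 CPM at 24 hpf and no count at 7 hpf), and gfi1b (16.9 CPM and no count). The latter is a transcriptional repressor that acts in the red cell line. Of 14 tested red cell genes 11 were called higher, including the globins hbae3 and hbbe3 (log2 fold change 8.32, adjusted p = 0.00139, for hbbe3). Of 8 tested white cell genes 6 were called higher, led in level by csf1ra. Of 20 vessel genes 9 were called higher, such as stab2, a scavenger receptor of veins (log2 fold change 6.67, SE 0.81), and 2 lower, the apelin receptors aplnra and aplnrb (log2 fold change -2.23 and -2.89). Over all genes 22.1% were called higher in this comparison, and 1798 of 20536 were called lower. Genes of other tissues rose in it too. Skeletal muscle genes were called higher in 6 of 6 cases (median log2 fold change 13.1) and hatching gland genes in 3 of 4 (8.49). Neural crest genes were in 3 of 4 (5.59), neural genes in 4 of 5 (5.33) and skin genes in 3 of 6 (2.89). Called lower were 2 of 4 gut and kidney genes, 1 of 5 germ cell genes and the 1 notochord gene.

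The rise was also seen in the PGC libraries. Of the 8 genes 7 were called higher at 24 than at 7 hpf, where 18.2% of all genes were, and the median log2 fold change was 5.78, or 4.58 with spi1b at its lower bound, against 0.43 over all genes. In kdrl the counts went from 0 and 2 at 7 hpf to 296 and 314 at 24 hpf. The ratio of the summed counts, each sum divided by the summed normalised library sizes, was 200. Its 95% exact binomial interval was 55.1 to 1654, which covers counting error only. cdh5 went from 0 and 1 counts to 305 and 260 (ratio 370, 66.2 to 14651). gata1a was the member not called: 13 and 18 counts at 24 hpf stood against 0 and 1 at 7 hpf (adjusted p = 0.105). spi1b was called (adjusted p = 0.0183) from only 11 and 12 counts, at least 1.92-fold above the floor of 3 counts. The count rested partly on single libraries. Without PGC 7 hpf replicate 1 or replicate 2 it was 4, and limma on log2(TPM + 1) called 3, namely cdh5, fli1a and kdrl.

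Other genes of these lineages were called in both directions in PGCs. Over all genes 18.2% were called higher at 24 than at 7 hpf, and 1227 of 20536 were called lower. Of 16 further regulators 4 were called higher than at 7 hpf and 2 lower. Vessel genes were called higher than at 7 hpf in 11 of 20 cases and lower in 2, and red cell genes in 8 of 14 and lower in 1. White cell genes gave 1 higher, csf1ra (mean 12.2 against 0.117 CPM), and 1 lower, lcp1, an actin-bundling protein of leukocytes (log2 fold change -5.85). lcp1 was high in PGCs at 7 hpf, with a mean of 486 CPM against 84.4 CPM in soma of that stage (log2 fold change 2.53, adjusted p = 0.0374). All 6 skeletal muscle genes were called higher too, as were 4 of 5 neural, 3 of 4 hatching gland and 3 of 4 neural crest genes. Of 6 skin genes 2 were called higher and 1 lower, and 1 of 4 gut and kidney genes and the 1 notochord gene were called lower. Germ cell genes were called lower in 4 of 5 cases (median log2 fold change -2.83). Their sums were 5040 and 6872 CPM at 7 hpf and 743 and 572 CPM at 24 hpf. In a bulk library fewer cells of a type and less RNA per cell cannot be told apart, and the part that cells of other types in the sorted fraction had in these levels was not tested.

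At 24 hpf every one of the 8 genes was lower in both PGC libraries than in both soma libraries, which 15.7% of all genes tested were. None was called at the adjusted threshold, nor was any of the other genes tested called lower (0%). Before adjustment 1 was lower (spi1b), against 0.575% of all genes, and DESeq2 and limma called 0. The median log2 fold change of the 8 was -1.05, against 0.06 over all genes. The genes ran from kdrl, whose PGC mean was 70.3% of the soma mean, to spi1b, at 8.37%.

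Among the factors of both lineages, tal1 had 15.6 and 11.2 CPM in PGCs and 34.4 and 21.9 CPM in soma (47.6% of soma). lmo2 had 11.1 and 7.36 CPM in PGCs and 14.8 and 14.5 CPM in soma, or 63.0%. The fitted differences were near the size of their standard errors for these partners, with a log2 fold change of -1.07 (SE 0.85) for tal1 and -0.67 (SE 0.88) for lmo2. The fitted differences were larger for the factors that commit cells to a blood line, although genes were not tested against each other. gata1a had 1.60 and 2.55 CPM in PGCs against 15.6 and 13.0 CPM in soma, 14.5% of the soma mean (log2 fold change -2.78, SE 1.31, adjusted p = 1.00 in edgeR). spi1b had 1.35 and 1.70 CPM in PGCs against 26.3 and 10.2 CPM in soma (log2 fold change -3.57, SE 0.92, adjusted p = 0.695 in edgeR). The soma libraries spread widely for spi1b, but both lay above the PGC libraries.

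Among the endothelial genes, etv2 had 9.34 and 6.51 CPM in PGCs and 19.6 and 15.4 CPM in soma, 45.2% of the soma mean. fli1a had 19.0 and 17.4 CPM in PGCs and 27.6 and 46.7 CPM in soma (49.0%). The PGC libraries of fli1a were close together, while the soma libraries spread. kdrl had 36.4 and 44.5 CPM in PGCs and 59.0 and 55.9 CPM in soma, and cdh5 had 37.5 and 36.8 CPM in PGCs and 68.6 and 74.3 CPM in soma (52.0%). The fitted log2 fold changes of these 4 genes ran from -0.51 (SE 0.74) for kdrl to -1.14 (SE 0.91) for etv2. Lists of other tissues differed among themselves. For skeletal muscle genes the median log2 fold change between PGCs and soma at 24 hpf was 0.56, and 0 of 6 had both PGC libraries below soma. For skin genes it was -0.50 with 2 of 6, and for hatching gland genes -2.05 with 3 of 4. Neural genes gave -0.08 with 1 of 5 and neural crest genes -0.14 with 1 of 4. The notochord gene gave -0.08 with 0 of 1, and gut and kidney genes -0.42 with 1 of 4. For the red cell list the median was -1.75, with 12 of 14 genes below in both libraries, for the white cell list -2.54 with 8 of 8, and for the vessel list -0.74 with 11 of 20.

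**Figure D2:**
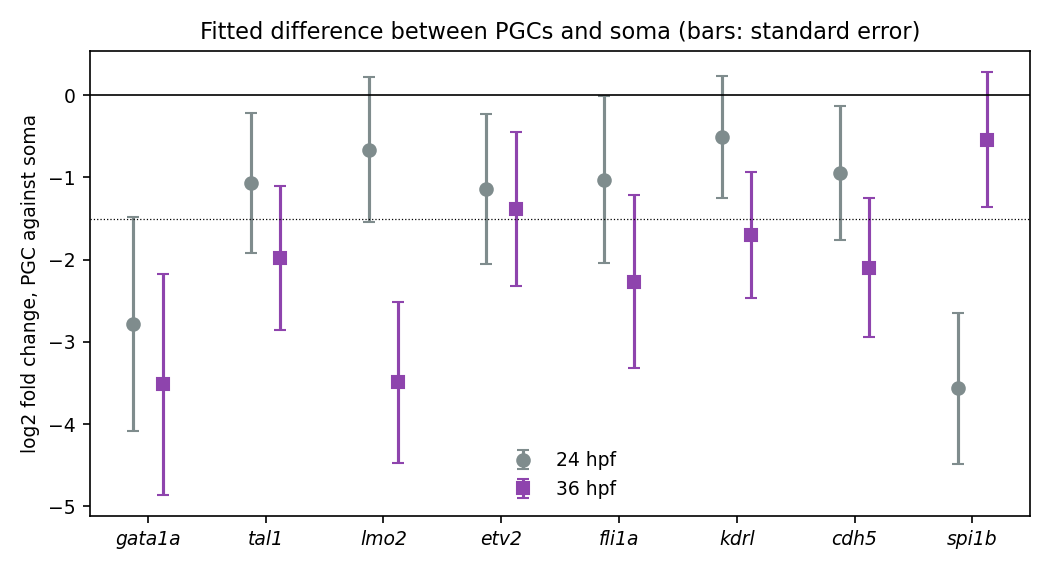
The y axis gives the fitted log2 fold change of PGCs against soma for each gene on the x axis, at 24 hpf (grey circles) and 36 hpf (purple squares); bars are standard errors from the edgeR fit, the solid line is no difference and the dotted line the -1.5 that a call for lower required. At 24 hpf gata1a (-2.78) and spi1b (-3.57) lie lowest, and at 36 hpf gata1a (-3.51) and lmo2 (-3.49) do, while spi1b lies at -0.54.

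At 36 hpf 7 of the 8 genes were lower in both PGC libraries than in both soma libraries, against 24% of all genes, and spi1b overlapped. Again none was called at the adjusted threshold, where 0.0146% of all genes were called lower. Before adjustment, with the fold threshold kept, 6 members were lower, against 2.76% of all genes. The median log2 fold change of the 8 was -2.04, against 0.00 over all genes. The count of calls depended on the settings: DESeq2 called 1 (lmo2), limma on log2(TPM + 1) called 2 (gata1a and lmo2), edgeR without the filter on low counts called 5 (cdh5, fli1a, gata1a, kdrl and lmo2), and edgeR without PGC 36 hpf replicate 1 called 3 (cdh5, gata1a and lmo2).

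In lmo2 the PGC libraries of 36 hpf held 1.40 and 0.300 CPM, from 23 and 4 counts, and the soma libraries 12.3 and 7.33 CPM. The PGC mean was 8.63% of soma (log2 fold change -3.49, SE 0.98, adjusted p = 0.159), where it had been 63.0% at 24 hpf. tal1, its partner, had 7.95 and 2.32 CPM in PGCs and 25.4 and 15.3 CPM in soma, 25.2% of the soma mean (log2 fold change -1.98, SE 0.87, adjusted p = 0.299). gata1a had 1.58 and 0 CPM in PGCs, from 26 and 0 counts, and 12.4 and 6.25 CPM in soma. The absence in replicate 2 allows up to 3 counts, or 0.225 CPM.

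The fitted log2 fold changes of the endothelial genes ran from -2.27 (fli1a) to -1.38 (etv2). fli1a had 9.83 and 1.42 CPM in PGCs and 27.6 and 27.0 CPM in soma (20.6%). cdh5 had 11.5 and 2.25 CPM in PGCs and 34.8 and 24.4 CPM in soma (23.3%). kdrl had 15.5 and 7.79 CPM in PGCs and 36.7 and 39.4 CPM in soma (30.7%). In all 3 the gap between the PGC replicates was wide, yet the higher PGC library stayed below the lower soma library. etv2 had 2.19 and 1.199 CPM in PGCs and 5.50 and 3.39 CPM in soma (38.1%, log2 fold change -1.38, SE 0.94). spi1b stood apart: its PGC libraries held 3.34 and 5.85 CPM and its soma libraries 8.45 and 4.89 CPM, so replicate 2 of the PGCs lay between the soma libraries (log2 fold change -0.54, SE 0.82, adjusted p = 0.786). On TPM, which is scaled to gene length and library total, the sign of the spi1b difference turned to 0.29 on the log2(TPM + 1) scale. For the endothelial genes mean TPM of PGCs at 36 hpf was a larger share of soma than CPM. It was 3.705 against 7.67 for fli1a, 0.995 against 1.675 for etv2, 1.47 against 3.13 for kdrl and 1.165 against 3.25 for cdh5. At 24 hpf, in the same order, it was 3.49 against 9.76, 2.1 against 5.975, 2.29 against 4.27 and 3.045 against 6.865. As a share of soma, TPM thus rose for fli1a and etv2 and fell for kdrl and cdh5. TMM factors at 36 hpf ran from 0.734 (soma replicate 2) to 1.61 (PGC replicate 2).

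Among the other genes, red cell genes lay below soma in both PGC libraries in 14 of 14 cases, with a median log2 fold change of -2.23, and 1 was called lower: blf (log2 fold change -1.98, SE 0.37, adjusted p = 0.0280). Vessel genes did in 15 of 20 cases, with a median of -1.69, and 0 were called. The libraries of 2 vessel genes lay above soma instead: dab2 (16.8 and 34.6 against 12.7 and 12.8 CPM) and vwf (3.95 and 13.2 against 0.713 and 1.49 CPM). Genes of other tissues were lower as well: skin genes in 6 of 6 cases with a median of -2.82, and skeletal muscle genes in 4 of 6 with a median of -1.80, while hatching gland genes had a median of 0.57. The soma libraries spread widely for skin, with sums of 3793 and 24027 CPM against 2995 and 1003 CPM in PGCs. They also did for skeletal muscle, with 393 and 1816 CPM against 296 and 419 CPM. The part of these other tissues in the members' values was not tested. For the 8 tested white cell genes the median was -0.54, with 3 below soma and 1 above in both libraries. That 1 was csf1ra, the receptor for macrophage colony-stimulating factor, which yellow pigment cells of fish also use. It had 58.0 and 138 CPM in PGCs and 19.8 and 19.3 CPM in soma (log2 fold change 2.33, SE 0.61, adjusted p = 0.1205).

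From 24 to 36 hpf, 7 of the 8 genes were lower in CPM in both later libraries within either cell type. In PGCs these were all but spi1b (26.1% of all genes tested lay below in this way), and in soma all but tal1, which overlapped (23.2%). On TPM the PGC libraries of 24 and 36 hpf overlapped for tal1 (2.33 and 1.28, then 1.84 and 0.96) and gata1a (0.40 and 0.49, then 0.62 and 0). They also did for fli1a (4.68 and 2.30, then 4.64 and 2.77). kdrl stayed lower on TPM in PGCs, from 2.37 and 2.21 to 1.55 and 1.39. In soma the libraries overlapped on TPM for gata1a, tal1, lmo2 and spi1b. None of the 8 genes was called in either cell type (1.69% of all genes were called lower in PGCs and 0% in soma). In PGCs 4 were lower before adjustment, against 6.29% of all genes: lmo2 (log2 fold change -3.40, SE 0.98, adjusted p = 0.103), cdh5 (-2.42, SE 0.85), etv2 (-2.21, SE 0.95) and kdrl (-1.79, SE 0.77). DESeq2 called 1 of them (lmo2), edgeR without the filter called 3 (cdh5, kdrl and lmo2), and edgeR without PGC 36 hpf replicate 1 called 1 (cdh5). In soma 0 were lower before adjustment, against 3.79% of all genes, and 0 were called by DESeq2 or limma. The largest change in soma was that of etv2, with a 36 hpf mean of 25.4% of the 24 hpf mean (log2 fold change -1.97, SE 0.94, adjusted p = 0.509). In PGCs its 36 hpf mean was 21.4% of that at 24 hpf, so etv2 was lower at the later stage in both cell types. The PGC and soma contrasts with 24 hpf share no library.

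spi1b was the only member whose PGC libraries were both higher at 36 hpf. The counts went from 11 and 12 to 55 and 78, or from 1.35 and 1.70 CPM to 3.34 and 5.85 CPM, 301% of the 24 hpf mean, and 24.9% of all genes lay above in this way. The fitted log2 fold change of 1.58 (SE 0.87, adjusted p = 0.473) was not called. In soma it moved the other way, from 26.3 and 10.2 CPM to 8.45 and 4.89 CPM, 36.6% of the 24 hpf mean (log2 fold change -1.45, SE 0.83, adjusted p = 0.621). The difference of these changes was 3.03 on the log2 scale (SE 1.205, adjusted p = 1.00 in edgeR). Before adjustment it passed p under 0.05 and the fold threshold, as 1.79% of all genes did in that direction. For lmo2 the difference was -2.83 (SE 1.28, adjusted p = 1.00 in edgeR), which also passed before adjustment, as 1.3% of all genes did in that direction. 0 of 20536 genes (0%) were called for a difference of changes between 24 and 36 hpf. For the changes from 7 to 24 hpf 0 members were called, where 0.00974% of all genes were called higher and 0.122% lower. Before adjustment 1 member was lower, etv2, against 6.2% of all genes.

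2 other genes of the lineage lists were called between 24 and 36 hpf in PGCs, where 38 of 20536 genes were called higher and 347 lower. csf1ra rose from 11.2 and 13.3 CPM to 58.0 and 138 CPM (a fitted 7.99-fold, adjusted p = 0.0264). stab2 fell from 104 and 70.5 CPM to 16.5 and 3.45 CPM (log2 fold change -3.13, SE 0.66, adjusted p = 0.0257). Of the 8 white cell genes tested 5 lay above in both libraries and 0 below, and of the 20 vessel genes 1 lay above and 15 below. Of the 16 further regulators tested 2 lay above and 3 below. Over all genes 24.9% lay above in this way and 26.1% below. Like spi1b, the regulator irf8 moved up in PGCs (0.614 and 0.425 to 1.34 and 4.20 CPM), from only 5 and 3 counts at 24 hpf. In soma irf8 moved down (2.35 and 3.18 to 0.815 and 0.815 CPM). spi1a rose in PGCs (0 and 0.708 to 1.46 and 1.65 CPM), from 0 and 5 counts, while its soma libraries overlapped. Genes of other tissues also moved from 24 to 36 hpf in PGCs. All 6 skin genes lay below in both libraries, with a median log2 fold change of -2.42 and 0 called. All 6 skeletal muscle genes were called lower, with a median of -5.45, and their sum went from 12700 and 22396 CPM to 296 and 419 CPM. The part of these tissues in the lower level of the vessel genes was not tested.

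In CPM the 2 PGC libraries of 36 hpf disagreed on nearly every member. 6 of the 8 were higher in replicate 1 beyond the 95% exact binomial interval of the counts, which 35.9% of 20367 genes with counts were, and 1, spi1b, was higher in replicate 2, which 34% were. These intervals compare the libraries and not conditions. fli1a had 162 and 19 counts, a ratio of replicate 2 to replicate 1 of 0.145 in CPM (0.0850 to 0.234). cdh5 had 190 and 30 counts (ratio 0.195, 0.128 to 0.288). lmo2 gave 0.215 (0.0540 to 0.628) and tal1 0.292 (0.191 to 0.435). kdrl, with 256 and 104 counts, differed less, at 0.502 (0.395 to 0.632). etv2, with 36 and 16 counts, gave 0.549 (0.284 to 1.01), an interval that includes 1. gata1a, with 26 counts in replicate 1 and none in replicate 2, was 7.02-fold above the floor of 3 counts in replicate 1. The lower end of its counting interval was 5.31-fold. spi1b, with 55 and 78 counts, had a ratio of 1.75 (1.22 to 2.52). These ratios depended on the scale. On TPM the libraries lay closer for kdrl (1.55 and 1.39), etv2 (1.00 and 0.99) and tal1 (1.84 and 0.96). The same held, with a wider gap left, for cdh5 (1.88 and 0.45) and lmo2 (0.50 and 0.19). For spi1b they lay further apart (2.00 and 4.93).

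The lists of other cell types divided in the same comparison of libraries. Of 15 red cell genes 12 were higher in replicate 1 and 1 in replicate 2, with a median ratio of 0.0946. hbae3, an embryonic globin, went from 327 CPM in replicate 1 to 13.8 CPM in replicate 2. Of 20 vessel genes 13 were higher in replicate 1 and 4 in replicate 2 (median ratio 0.478). All 5 neural genes were higher in replicate 1 (median 0.108). White cell genes went the other way: 8 of 11 were higher in replicate 2, with a median ratio of 2.33. These were csf1ra (ratio 2.38), the leukocyte actin proteins lcp1 (1.99) and coro1a (1.84), csf3r (2.82), ptprc (3.83), ncf1 (2.33), and marco and cxcr3.2, which had few counts. 2 enzyme genes of myeloid cells were higher in replicate 1, lyz (ratio 0.222) and npsn, with 63 counts in replicate 1 and none in replicate 2. All 5 germ cell genes were higher in replicate 2, by ratios of 1.77 to 3.26. Of the 19 further regulators 10 were higher in replicate 1 and 2 in replicate 2. Skin (5 of 6), hatching gland (4 of 4) and gut and kidney genes (4 of 4) were also higher in replicate 1. Skeletal muscle genes divided, with 2 higher in replicate 1 and 3 in replicate 2. Neural crest genes did too, with 2 of 4 higher in replicate 1 and 1 in replicate 2. The 1 notochord gene was higher in replicate 2. spi1b thus lay on the side of the germ cell genes and of most white cell genes, where 34% of all genes with counts also lay. The other 7 members lay on the side of the red cell, vessel and neural lists, although the interval of etv2 included 1. What part the mix of cells in each library had in these ratios was not tested.

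**Figure D3:**
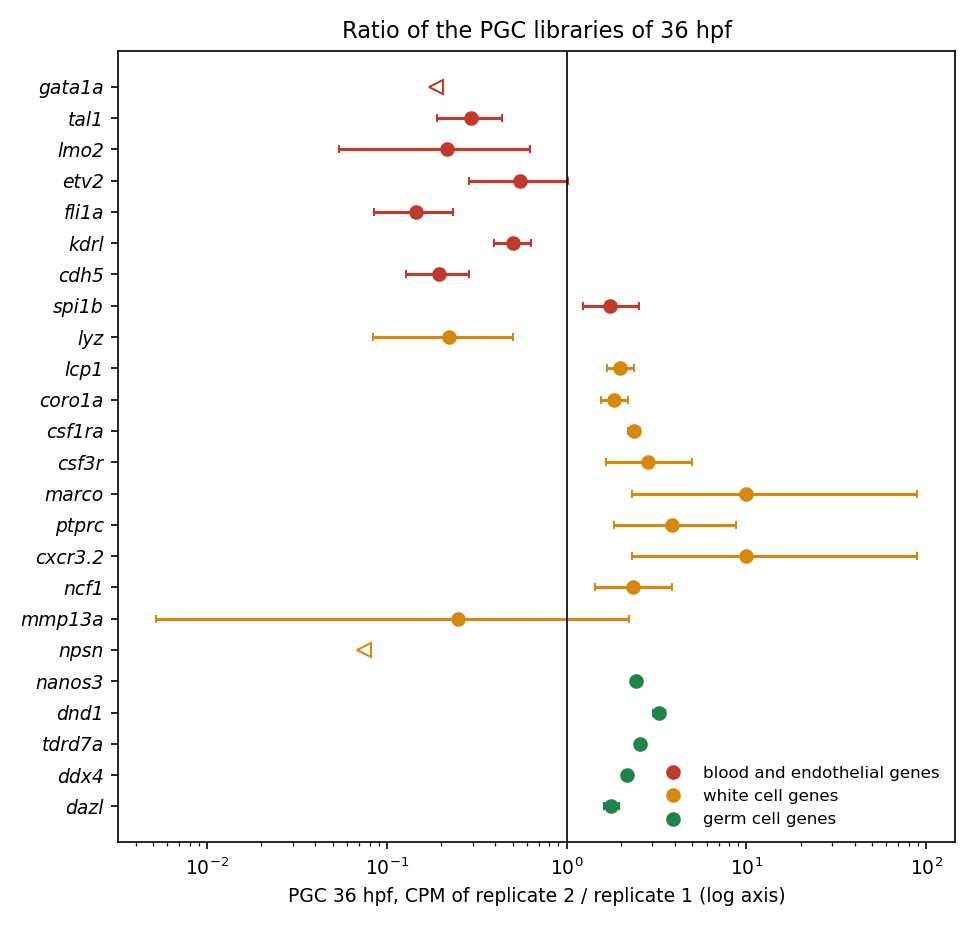
The x axis (log scale) gives the ratio of CPM in replicate 2 to replicate 1 of the PGC libraries of 36 hpf for each gene on the y axis, with the 95% exact binomial interval of the counts (bars); open triangles mark the upper end of the interval for genes with no count in replicate 2, and the vertical line is equal levels. Red points of 7 blood and endothelial genes lie left of the line and spi1b at 1.75, while 8 of the 11 white cell genes and all 5 germ cell genes lie to the right.

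Summed over the 8 genes, the level was 132 and 128 CPM in the PGC libraries of 24 hpf and 53.4 and 21.1 CPM in those of 36 hpf. In soma it was 266 and 252 CPM at 24 hpf and 163 and 128 CPM at 36 hpf. The replicates of the 24 hpf groups were thus nearly level with each other, and those of 36 hpf spread more in PGCs than in soma. Vessel genes summed to 397 and 330 CPM in PGCs at 24 hpf and 162 and 137 CPM at 36 hpf. White cell genes summed to 21.1 and 34.0 CPM and then to 94.8 and 201 CPM. csf1ra made up 58.0 and 138 CPM of the latter. Without it, a split chosen after its values were seen, the other 10 white cell genes summed to 9.95 and 20.7 CPM in PGCs at 24 hpf and 36.7 and 63.5 CPM at 36 hpf, against 116 and 68.1 CPM and 147 and 63.3 CPM in soma, so soma 36 hpf replicate 1 was then highest.

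**Figure D4:**
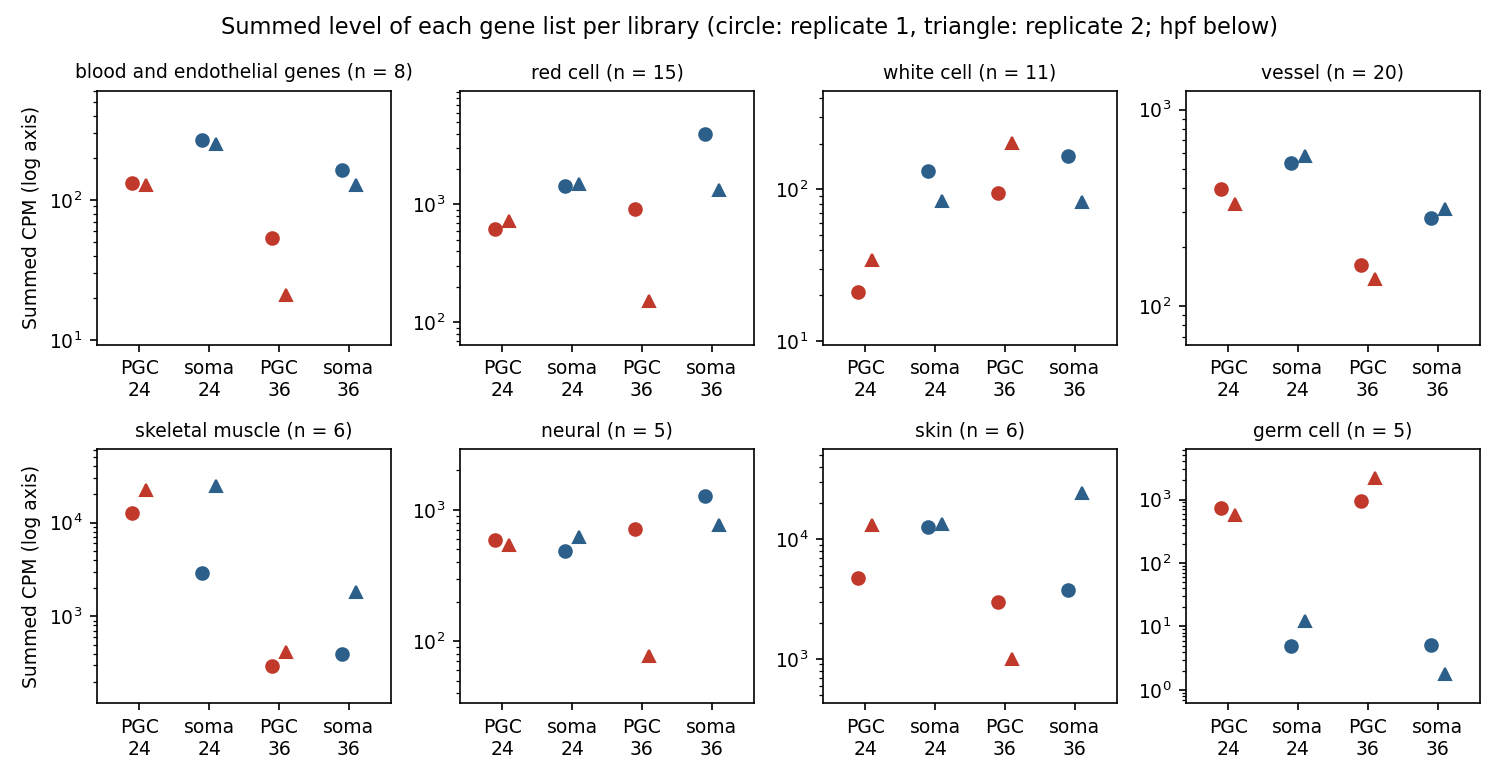
Each panel gives the summed CPM (log axis) of 1 gene list in the 8 libraries of 24 and 36 hpf, red for PGCs and blue for soma, circles for replicate 1 and triangles for replicate 2. The sum of the 8 blood and endothelial genes is lowest in PGC 36 hpf replicate 2 (21.1 CPM), where the red cell and neural sums are also lowest and the germ cell sum (2196 CPM) is highest; the white cell sum is highest there too (201 CPM), with 138 CPM of it from csf1ra.

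The order of the groups was similar for most members. Soma of 24 hpf had the highest mean CPM for all 8 genes, and for tal1 its range overlapped that of soma at 36 hpf. For tal1, lmo2, fli1a and gata1a soma of 36 hpf came next, then PGCs of 24 hpf and PGCs of 36 hpf, and the ranges of soma 36 hpf and PGC 24 hpf overlapped for tal1 and lmo2. For etv2, kdrl and cdh5 PGCs of 24 hpf came before soma of 36 hpf, and the ranges overlapped for kdrl. spi1b alone had PGCs of 36 hpf ahead of PGCs of 24 hpf. Compared per length, TPM in soma of 24 hpf ran from 2.36 (spi1b, replicate 2) to 12.7 (spi1b, replicate 1), so the place of spi1b was not resolved. Both fli1a libraries (9.36 and 10.16) lay above those of every member but spi1b. Both cdh5 libraries (7.67 and 6.06) lay above those of gata1a, lmo2 and kdrl. All other pairs of members overlapped over the 2 libraries. Within each library etv2 (7.68 and 4.27) lay above gata1a (5.24 and 3.10), tal1 (6.85 and 3.09), lmo2 (4.50 and 3.11) and kdrl (5.11 and 3.43). cdh5 likewise lay above tal1, and kdrl above lmo2. The effective length that RSEM assigned to fli1a ran from 509 bases in PGC 36 hpf replicate 2 to 2759 bases. TPM of fli1a (4.64 and 2.77 in the PGC libraries of 36 hpf) showed a smaller gap between those libraries than CPM. kdrl, at 5545 and 5542 bases, also had a smaller gap on TPM (1.55 and 1.39) than on CPM (15.5 and 7.79). What part length and library scaling each had for fli1a was not tested. The change of fli1a from 24 to 36 hpf in PGCs was 0.0910 on the log2(TPM + 1) scale against -1.69 in the count fit.

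The genes whose pattern over the 16 libraries was most like that of a member were taken by Pearson's r of log2(CPM + 1) among 16664 genes, as a description. Libraries share stage and cell type, and r was not split by stage. Names are as the name table gives them. For gata1a these were GFI1B (r = 0.99), ENSDARG00000096331 (0.98) and DIPK2B (0.97). For spi1b they were CSF3R, the receptor for granulocyte colony-stimulating factor (0.98), si:dkey-185m8.2 (0.97) and INPP5D, a phosphatase of blood cells (0.96). For tal1 they were BCL6B, SOX1 and ntn2 (each 0.98), and for lmo2 ecscr (0.98), clec14a (0.98) and shank3b (0.97), of which ecscr and clec14a are endothelial surface proteins. For etv2 they were fli1rs (0.98), MRC1 (0.98) and TBX18 (0.97). For cdh5 they were ANGPT1 (0.98), mb (0.97) and MRC1 (0.97), for fli1a ZIC5 (0.97), SLC20A1 (0.96) and ANGPT1 (0.96), and for kdrl GFAP, hapln1a and zbtb16b (each 0.99). The closest genes of kdrl thus included GFAP, a protein of glia.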

How the data were processed

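RNA was sorted from PGCs and soma and made into libraries with a SMARTer pico kit. The authors trimmed reads with Trim Galore, aligned them to danRer10 with STAR and counted genes with RSEM, per the labels and the methods. The deposited expected counts are RSEM's unnormalised estimates, of which 95.2% were whole. The deposited TPM values are scaled to gene length and library total. A single gene of 1.55 to 4.12 bases of effective length (a deposited table of other values, in bases) took between 2.84% and 46.6% of a library's TPM, so TPM served for levels per length and as an alternative.

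Expected counts were rounded, 92 empty spike-in rows were left out, and filterByExpr (10 counts, 15 in total) kept 20536 genes. All 16 libraries entered 1 edgeR 4.0.16 quasi-likelihood fit (R 4.3.3, TMM, a factor of 8 groups), after a test on simulated data. A call required a Benjamini-Hochberg adjusted p under 0.05 and an absolute log2 fold change over 1.5. Counts and shares before adjustment required an unadjusted p under 0.05 and the same fold change. SE is the log2 fold change over the root of F. CPM are TMM-normalised. Bounds use 3 counts per library. Intervals were computed from the counts alone, so they cover counting error only and no spread between libraries. Reads carried no molecular identifiers used in counting. The study calls its replicates biological. DESeq2 1.42.0, limma 3.58.1, other filters, length offsets, a replicate block and each library left out were alternatives. All 8 members are named. From each list, called genes are named in order of mean CPM, at most 4 per comparison, along with the 3 genes most alike in pattern to each member. Other list genes named between the PGC libraries of 36 hpf, and irf8, spi1a, dab2 and vwf, were chosen after their values were seen. Members and lists were chosen with earlier results of these data known. Names come from the table given with the reference, in which 26790 genes had a symbol. Sequences and coordinates were not analysed here.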

Additional observations from a re-analysis of the deposited data

Results flagged for a closer look

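The change of spi1b from 24 to 36 hpf was flagged because both PGC libraries moved up (11 and 12 counts to 55 and 78) while both soma libraries moved down (190 and 64 counts to 83 and 36). The difference of the changes was 3.03 on the log2 scale (SE 1.205, adjusted p = 1.00, edgeR), and over the alternatives it ranged from 2.17 to 3.83, with adjusted p from 0.310 to 1.00.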

How the results depend on the processing

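With 2 libraries in a group and few counts at 4 and 7 hpf, depth limited the folds from those stages. The 8 calls in soma from 7 to 24 hpf held under all alternatives run, and no member was called under any of them for PGCs against soma at 4, 7 or 24 hpf, for soma from 24 to 36 hpf, or for either difference of changes. For PGCs against soma at 36 hpf (0 called) the count was 5 without a filter, 1 in DESeq2 and 2 in limma on log2(TPM + 1), with or without the filter, and 0 to 3 with a library left out. For PGCs from 24 to 36 hpf (0 called) it was 3 without a filter, 1 in DESeq2 and 0 to 1 with a library left out. For PGCs from 7 to 24 hpf (7 called) it was 3 in limma on log2(TPM + 1), with or without the filter, and 4 to 8 with a library left out. From 4 to 7 hpf (0 called in either cell type) the count without a filter was 1 in soma (cdh5) and 2 in PGCs (cdh5 and fli1a). It was 0 to 1 with a library left out in both, the calls being cdh5 without soma 4 hpf replicate 2 and fli1a without PGC 4 hpf replicate 2. The cause was not tested. Among the differences and changes at 24 and 36 hpf, directions turned only on TPM: spi1b for PGCs against soma at 36 hpf (0.29 with a pseudocount of 1, with or without the filter, and 0.39 with 0.1) and fli1a for PGCs from 24 to 36 hpf (0.0910 and 0.12). Replicate numbers gave correlations of same-numbered deviations of 0.30, 0.10, 0.24 and 0.31 at the 4 stages, over 2 pairs each, and were not taken as pairs. With the replicate block, 0 members were called in any comparison of PGCs with soma or of their changes.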
